A study of Mus musculus with 131 samples.

Results

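The data describe the genes of hepcidin and of the bone morphogenetic protein (BMP) response that controls it, followed through expression, DNA methylation and chromatin in mouse hepatocytes. The 10 genes, Hamp, Hamp2, Id1, Id2, Id3, Smad6, Smad7, Tfr2, Tmprss6 and Hfe, were chosen by name from the 24397 genes of the expression table, and each had 1 row there. Hepatocytes of C57Bl mice were compared between ages and after deletion of Tet2 and Tet3, which encode enzymes that oxidise 5-methylcytosine. The uninjected wild-type (WT) groups were 1 week (1 library), 3 weeks (3 libraries) and 15 weeks old (3 libraries). The double-knockout (DKO) mice carried loxP-flanked alleles of Tet2 and Tet3 (Tet2F/Tet3F) and received the AAV8-Cre virus at 1 day (3 libraries) or 3 weeks (2 libraries), and all were harvested at 15 weeks. The controls were WT mice of the same age that received the same virus at 1 day (3 libraries) or 3 weeks (3 libraries), so control and DKO mice shared the virus and Cre. Cre was driven by the Tbg promoter, which is active in hepatocytes, so other liver cells kept Tet2 and Tet3. Whole-genome bisulfite sequencing (WGBS) covered 1 newborn library (1 week), 1 adult WT library (15 weeks) and 1 library of DKO mice injected at 1 day (15 weeks). The histone marks H3K27ac and H3K4me1 were each mapped in 1 library of uninjected WT mice and 1 of DKO mice injected at 1 day. These histone libraries were of hepatocytes at 15 weeks. Reduced representation bisulfite sequencing (RRBS) covered 2 to 3 mice in each of the WT (3 weeks), control and DKO groups. RRBS also covered hepatocytes of 2 mice whose insulin receptor was deleted after birth, made in a like manner from loxP-flanked mice and labelled with no age, 2 cultures labelled as hepatocytes of 1 week and grown from unsorted newborn liver cells, fat of a WT mouse of 25 weeks and neutrophils of a WT mouse of 36 weeks. Samples labelled as liver of WT mice and of mice in which Tet2 and Tet3 were deleted in hepatocytes after birth were used for open chromatin and HNF6 binding, with no age in the labels. For open chromatin the study describes hepatocytes of 15 weeks, with the deletion at 1 day. The oxidised base 5-hydroxymethylcytosine was mapped in 1 library labelled as hepatocytes, with no age or genotype in the label. Per the methods of the study, those hepatocytes came from mice of about 3 weeks.

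Hepcidin is a peptide hormone that hepatocytes secrete to limit the release of iron into the blood, which it does by blocking the exporter ferroportin. BMP ligands, supplied largely by endothelial cells of the liver, bind receptors on the hepatocyte and activate SMAD proteins that move to the nucleus and switch on Hamp together with Id1, Id2, Id3, Smad6 and Smad7. Smad6 and Smad7 encode inhibitory SMADs that dampen the same signal, Hfe and Tfr2 take part in sensing iron-loaded transferrin, and Tmprss6 encodes a membrane protease that lowers the signal. Mice carry a second hepcidin gene, Hamp2, beside Hamp.

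Both hepcidin genes lay on chromosome 7 (mm9 build, minus strand), Hamp at 31727388-31729036 and Hamp2 at 31707391-31709200, and Usf2 (31730271-31741822), which encodes a transcription factor, lay just upstream of Hamp. The promoters of both are shown because Hamp and Hamp2 differed in expression and in open chromatin. Each run holds the 250 bases before the RefSeq start (GRCm38.p6 table), and each was found once in the mm9 genome, at chr7:31729049-31729298 for Hamp and chr7:31709201-31709450 for Hamp2. Capitals mark the hexamer GGCGCC, the core of a known BMP response element, GGCACC, which stands at the matching place in Hamp2 and again near the end of that promoter, and TTCTTGGAA, a sequence of the STAT type that follows the hexamer in both:
Hamp: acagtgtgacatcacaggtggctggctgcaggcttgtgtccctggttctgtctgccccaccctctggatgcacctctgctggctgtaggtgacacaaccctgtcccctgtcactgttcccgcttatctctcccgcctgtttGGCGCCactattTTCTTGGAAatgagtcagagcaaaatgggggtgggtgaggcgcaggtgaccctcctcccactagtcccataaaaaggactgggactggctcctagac
Hamp2: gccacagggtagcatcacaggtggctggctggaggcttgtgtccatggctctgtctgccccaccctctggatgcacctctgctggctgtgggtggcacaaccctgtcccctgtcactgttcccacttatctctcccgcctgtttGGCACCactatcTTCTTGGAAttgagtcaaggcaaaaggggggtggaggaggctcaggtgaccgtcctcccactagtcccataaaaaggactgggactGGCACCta
Over 247 aligned bases the promoters were identical at 227 (91.9%). The hexamer began 109 bases before the Hamp start, and at its place the Hamp2 promoter carried the substitution G145A, with positions counted from the first base printed for Hamp. GGCGCC stood in 9.54% and TTCTTGGAA in 0.37% of the 27025 promoters of this length in the table, on either strand, and GGCACC in 12.7%. A promoter sequence was available for 7 of the 10 genes. Among the other 5, GGCGCC was found in that of Id2 and GGCACC in that of Id3, and TTCTTGGAA in none.

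Expression was given by the authors as FPKM, a read level corrected for transcript length and library size, so levels can be compared between genes. The transcripts of Hamp and Hamp2 were 84.93% identical over an end-to-end alignment. Of the 343 windows of 50 bases, the read length, in the Hamp transcript, 60 (17.5%) were also in that of Hamp2, and 60.1% matched it with at most 2 mismatches, so the split of reads between the pair is uncertain. Which comparison led to the choice of the 10 genes is not recorded. Their expression is therefore given as a description with no p for any of them, and counts of those called by the fit over all genes describe the list and support nothing. Whether methylation or peaks played a part in the choice is not recorded either, so the exact tests given for methylation are not independent evidence. In bulk libraries such as these, fewer cells of a type and less RNA per cell cannot be told apart.

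In WT mice hepcidin mRNA was low and variable. Hamp stood at 6.63 FPKM at 1 week, at 8.87, 3.45 and 4.13 FPKM in the libraries A, B and C at 3 weeks, and at 4.11 and 72.9 FPKM in libraries A and B at 15 weeks. It was listed at 0 in library C at 15 weeks, and an exact 0 in this table can be a failed estimate. Hamp2 stood at 1.34 FPKM at 1 week, at 75.7, 27.02 and 38.6 FPKM at 3 weeks, and at 2.71, 23.1 and 0.188 FPKM at 15 weeks. The 3-week and 15-week libraries did not overlap for Hamp2, with a log2 difference of -3.22 ± 0.88 (SE) on the log2(FPKM + 1) scale used for all fitted differences. Hamp2 thus made up 88.7% to 90.3% of the summed FPKM of the pair at 3 weeks, against 16.9% at 1 week and 39.7% and 24.1% in libraries A and B at 15 weeks. The 3-week libraries also differed from those of 1 and 15 weeks in markers of sex, given below, so age and sex cannot be told apart here.

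**Figure D1:**
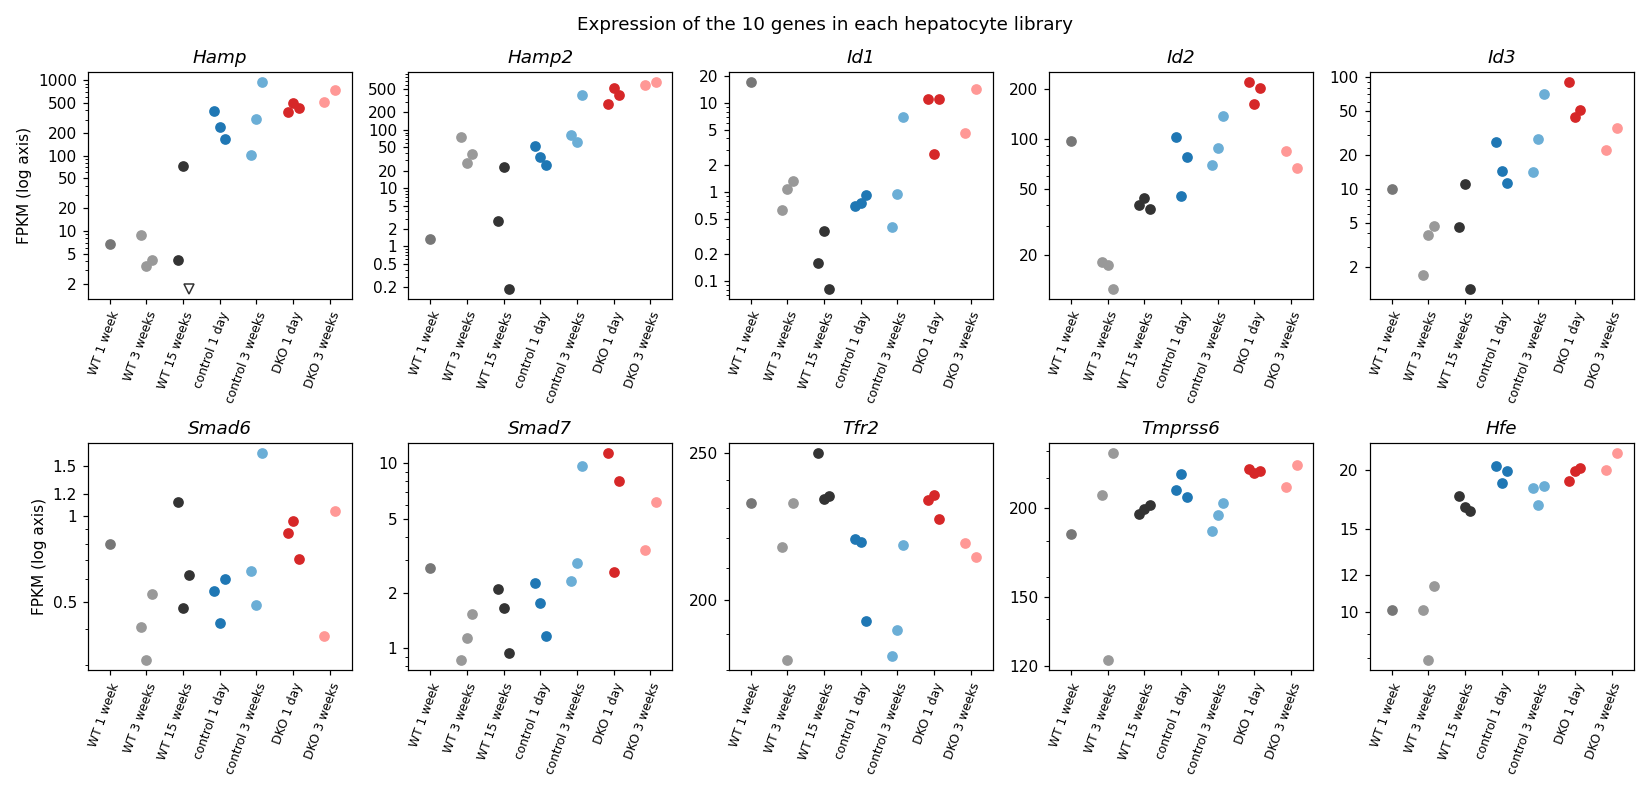
FPKM of each of the 10 genes (log axis, scaled per gene) in the 18 libraries, 1 point per library, with groups along the horizontal axis. The open triangle marks the library in which Hamp was listed at 0. Hamp and Hamp2 are higher in all injected groups than in the 15-week WT group, whereas Tfr2 stays between 183 and 250 FPKM throughout.

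The injected mice, with or without Tet2 and Tet3, had the highest Hamp levels of the series. Hamp stood at 385, 239 and 163 FPKM in the controls injected at 1 day and at 102.8, 302 and 937 FPKM in those injected at 3 weeks. It stood at 382, 495 and 426.3 FPKM in the DKO mice injected at 1 day and at 514 and 734 FPKM in those injected at 3 weeks. Each of these 11 libraries exceeded the highest WT value without injection, and DKO and control libraries overlapped at both injection times. The fitted log2 difference of the DKO from its control was 0.80 ± 1.14 at 1 day and 0.99 ± 1.27 at 3 weeks, within the spread between libraries. Controls injected at 1 day exceeded WT mice of 15 weeks by 5.10 ± 1.14 on the log2 scale, with a listed 0 among the WT values. In that comparison all 3 control libraries exceeded all 3 WT libraries for 7 of the 10 genes, against a background of 7.58% of the 11166 genes tested. Smad6 was not among the genes tested, and its libraries overlapped. The share of all genes called was 0 (limma, 0 of 11166 at an adjusted p of 0.05, 855 at an unadjusted p under that value), and 0 of the 9 tested genes of the list were called (4 unadjusted). Control and WT mice were given as separate groups, so virus, Cre and any difference in handling cannot be told apart.

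Hamp2 was the gene with the largest difference between DKO and control among the 9 tested. It stood at 52.0, 34.0 and 25.0 FPKM in controls injected at 1 day and at 276, 533 and 391 FPKM in the matching DKO mice, 10.8 times as high on average, with a log2 difference of 3.41 ± 0.88. It stood at 81.6, 62.7 and 394 FPKM in controls injected at 3 weeks and at 582 and 658 FPKM in the matching DKO mice, with a log2 difference of 2.28 ± 0.99. The libraries of the groups did not overlap at either time. The share of Hamp2 in the summed FPKM of the pair was 11.9%, 12.5% and 13.3% in controls injected at 1 day and 42.0%, 51.9% and 47.8% in the matching DKO mice. At 3 weeks it was 44.3%, 17.2% and 29.6% in controls and 53.1% and 47.2% in DKO mice. The share thus ran from 42.0% to 53.1% in the DKO libraries and from 11.9% to 44.3% in the controls, overlapping through control library A of 3 weeks. Hamp exceeded Hamp2 in each of the 6 control libraries, and also in DKO libraries A and C of 1 day and B of 3 weeks. These shares rest on the uncertain split of reads between the pair.

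The target genes of the BMP signal differed in level and pattern. Id1, an inhibitor of basic helix-loop-helix transcription factors, stood at 17.1 FPKM at 1 week, 0.621, 1.07 and 1.32 FPKM at 3 weeks and 0.162, 0.361 and 0.0822 FPKM at 15 weeks in WT mice. It stood at 0.688, 0.754 and 0.932 FPKM in controls injected at 1 day and at 11.0, 2.68 and 11.2 FPKM in the matching DKO mice, with no overlap and a log2 difference of 2.18 ± 0.58. At 3 weeks the control values were 0.401, 0.942 and 7.05 FPKM and the DKO values 4.56 and 14.4 FPKM, so that control library C lay between the DKO libraries (log2 difference 1.72 ± 0.65). The adult WT and control levels of Id1 were below 1 FPKM except in that library.

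Id2, of the same family, was expressed at a higher level. It stood at 96.7 FPKM at 1 week, 18.3, 17.5 and 12.6 FPKM at 3 weeks and 39.9, 43.8 and 38.1 FPKM at 15 weeks, with no overlap between the latter groups (log2 difference 1.29 ± 0.28). It stood at 102, 45.1 and 77.6 FPKM in controls and 218, 161 and 201 FPKM in DKO mice injected at 1 day (log2 difference 1.42 ± 0.28, no overlap). For injection at 3 weeks the order was not the same, with 69.7, 88.2 and 137 FPKM in controls and 84.8 and 66.4 FPKM in DKO mice, which overlapped (log2 difference -0.33 ± 0.31). The deletion differences at the 2 times differed by 1.75 ± 0.42 for Id2, against 1.91 ± 0.91 for Id3 and 1.33 ± 0.68 for Smad7, and by 1.48, 1.32 and 0.81 without control library C of 3 weeks.

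Id3 differed in the same direction as Id2 after injection at 1 day. It stood at 26.4, 14.4 and 11.2 FPKM in controls and at 89.6, 44.2 and 50.8 FPKM in DKO mice injected at 1 day (log2 difference 1.79 ± 0.61, no overlap). It stood at 14.1, 27.9 and 69.8 FPKM in controls and 22.3 and 35.03 FPKM in DKO mice injected at 3 weeks, which overlapped (log2 difference -0.12 ± 0.68). Smad7 stood at 2.26, 1.77 and 1.17 FPKM in controls and 11.3, 2.61 and 8.00 FPKM in DKO mice injected at 1 day (log2 difference 1.45 ± 0.45), where the lowest DKO library lay just above the highest control. At 3 weeks the control values of 2.31, 2.91 and 9.69 FPKM enclosed the DKO values of 3.40 and 6.17 FPKM for Smad7. Smad6 lay between 0.312 and 1.66 FPKM in the 18 libraries and was below the minimum mean of 1 FPKM in a group that the test required. Its DKO libraries at 1 day, at 0.872, 0.960 and 0.704 FPKM, lay above the controls at 0.545, 0.422 and 0.601 FPKM.

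The genes that feed iron status into the pathway were the steadiest of the list. Tfr2, a transferrin receptor of hepatocytes, lay between 183 and 250 FPKM and Tmprss6 between 123 and 238 FPKM in all 18 libraries. Their log2 differences between DKO and control at 1 day were 0.14 ± 0.11 and 0.08 ± 0.18. All 3 DKO libraries lay above all 3 controls for both genes, at 226 to 235 against 194 to 220 FPKM for Tfr2 and at 224 to 227 against 207 to 223 FPKM for Tmprss6. Hfe stood at 10.1 FPKM at 1 week and 7.93 to 11.3 FPKM at 3 weeks, and at 16.4 to 17.6 FPKM at 15 weeks (log2 difference 0.74 ± 0.11 from 3 weeks, no overlap). Its means of 19.7 FPKM in control and DKO mice injected at 1 day were alike to 3 digits.

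**Figure D2:**
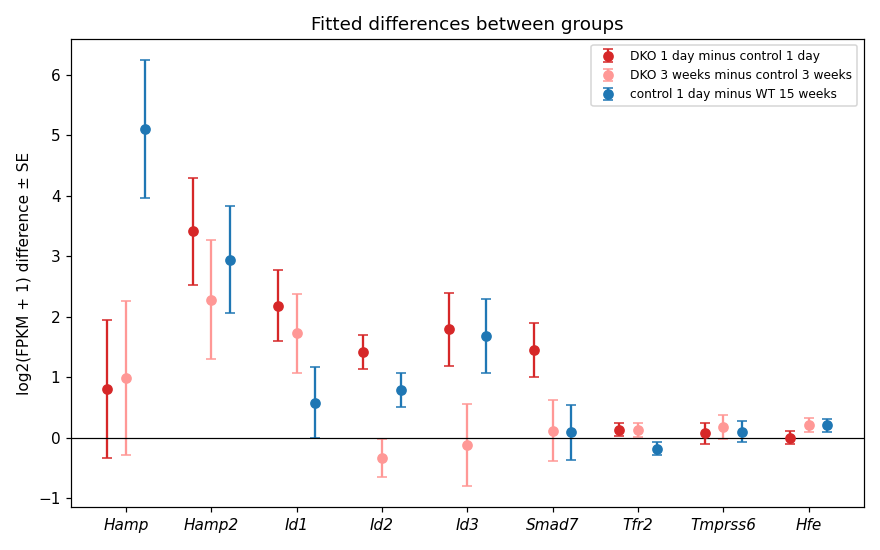
Differences in log2(FPKM + 1) with their SE from 1 fit over all libraries, for the 9 genes that passed the filter. Hamp2 differs by 3.41 and Id1 by 2.18 between DKO and control mice injected at 1 day, and Hamp by 5.10 between controls and uninjected WT mice, while Tfr2, Tmprss6 and Hfe lie near 0 in the 3 comparisons drawn.

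Counted together, all DKO libraries lay above all controls injected at 1 day for 8 of the 10 genes (not for Hamp and Hfe), where 11.4% of all genes tested did. The 8 include Smad6, which was below the filter and so is not among the genes of that background. Of the 9 tested genes 4 (Hamp2, Id1, Id2 and Smad7) passed an adjusted p of 0.05 in limma, where 20.0% of all genes did, and the median difference was 1.42 against -0.11 over all genes. The count was 7 once each library was scaled by its median ratio, where 1510 of all genes were called higher and 1327 lower. Without 1 library it was 2 (without control A), 1 (without control C), 2 (without DKO A) and 2 (without DKO C). At 3 weeks 0 of 9 passed (2 at an unadjusted p under 0.05), against 5.25% of all genes, and 1 (Id1, log2 difference 2.49) without control library C. For the difference between the injection times 1 of 9 (Id2) passed, against 5.36%, and 0 passed without any 1 of control 1 day C, control 3 weeks A, B or C, DKO 1 day A or C, or DKO 3 weeks B. For 15-week against 3-week WT mice 3 of 9 (Hamp2, Id2 and Hfe) passed, against 33.3%. These shares describe the list and carry no test. Among all 11166 genes 483 were higher and 1745 lower in DKO mice injected at 1 day, that is 21.7% of calls higher, and 1510 and 1327 (53.2%) once each library was scaled by its median ratio, which shifted the median difference from -0.11 to 0.02. At 3 weeks the split was 101 higher to 485 lower (17.2% higher), and 580 to 757 (43.4%) after scaling. For the difference between the times it was 260 to 339 (43.4%), and 1208 to 1033 (53.9%). From 3 to 15 weeks it was 2678 to 1041 (72%), and 1797 to 2138 (45.7%), with the median moving from 0.15 to -0.02.

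Several libraries stood apart in other genes. Xist, which is transcribed from the inactive X chromosome, stood at 48.0 to 77.1 FPKM in the 3-week WT libraries and at 88.1 FPKM in control library C injected at 3 weeks, and at no more than 0.0609 FPKM in the other 14. The Y-linked gene Ddx3y was at 0 to 0.00764 FPKM in the same 4 libraries and at 9.84 to 13.5 FPKM in the others. Age and sex thus cannot be told apart in WT mice between 3 weeks and either 1 or 15 weeks. That control library was also the highest of its group for Hamp, Hamp2, Id1, Id2, Id3, Smad6 and Smad7. Without it the log2 differences at 3 weeks were 1.80 for Hamp, 3.10 for Hamp2, 2.49 for Id1, 0.64 for Smad7, 0.47 for Id3 and -0.06 for Id2. In DKO mice injected at 1 day, Mup20, a male-biased urinary protein (adjusted p = 0.0658 in limma), stood at 1040 to 1693 FPKM, against 8173 to 14255 FPKM in controls. Over the list of 6 male markers 1 passed the test as lower (Hsd3b5, log2 difference -2.76, limma adjusted p = 0.0253). The part of this shift in the hepcidin differences was not tested.

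The summed FPKM of 7 hepatocyte markers lay between 15945 and 30008 in every library, with none at 0. The 6 endothelial markers summed to 3.80 to 6.00 FPKM in DKO and 5.95 to 9.03 FPKM in control mice injected at 1 day, and to 10.9 to 22.8 against 3.81 to 10.2 FPKM at 3 weeks. The 6 macrophage markers summed to at most 11.1 FPKM in any library, the 5 stellate markers to 38.6, the 4 biliary markers to 7.25 and the 4 leukocyte markers to 18.2, this last in the 1-week library, and to at most 0.376 in the others, after the CD45-negative sort. Of the erythroid markers, Gata1 was at 0 in DKO and control mice injected at 1 day, and the sum of 11.5 to 14.4 against 52.0 to 70.5 FPKM there came mostly from Alas2 (log2 difference -2.11, adjusted p = 0.0134). The erythroid sum of the 1-week library was 494 FPKM. Whole-gene FPKM of Tet2 was higher in DKO mice injected at 1 day (0.79 ± 0.20 on the log2 scale, adjusted p = 0.0173) and the difference for Tet3 was 0.12 ± 0.15 (adjusted p = 0.612). At 3 weeks the differences were -0.63 ± 0.23 and -0.47 ± 0.16. Such values cover exons outside the floxed part, so they do not check the deletion. Usf2, the neighbour of Hamp, differed by -0.36 ± 0.15 at 1 day (adjusted p = 0.0951).

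Outside the 10 genes, 88 further genes of BMP signalling and iron handling were listed, of which 72 were tested. After deletion at 1 day 3 rose and 13 fell (22.2% called, against 20.0% of all genes), and the median difference was -0.20, against -0.11. After scaling each library by its median ratio 9 were higher and 8 lower, so the balance of directions rests on the scaling. Fst, which encodes the secreted BMP and activin binder follistatin, rose from 2.73, 2.28 and 1.49 FPKM to 15.2, 16.2 and 15.6 FPKM (log2 difference 2.42 ± 0.29, limma adjusted p = 0.000106). Slc40a1, which encodes ferroportin, the target of hepcidin, rose from 20.1, 20.8 and 11.8 FPKM to 42.6, 36.0 and 40.5 FPKM (1.17 ± 0.34, adjusted p = 0.0310), a call lost in 4 of 14 alternatives, without control C, DKO A or DKO C among them. Slc39a14, a transporter for iron not bound to transferrin, was the remaining gene that rose (0.56 ± 0.15, adjusted p = 0.0225).

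Of the genes that fell, Blvrb, a biliverdin reductase, fell from 51.0, 46.5 and 64.1 FPKM to 11.8, 14.6 and 12.3 FPKM (log2 difference -1.97 ± 0.14, adjusted p = 1.21e-06). Hmox1, the heme oxygenase, fell from 2.62, 2.86 and 4.29 FPKM to 1.07, 1.22 and 1.23 FPKM (-0.95 ± 0.19, adjusted p = 0.00467). Fth1, the heavy chain of ferritin, fell from 575, 515 and 858 FPKM to 319, 427.04 and 328 FPKM (-0.84 ± 0.20, adjusted p = 0.0122), a call lost without control C and without DKO A, whereas Ftl1, the light chain, was not called (-0.24 ± 0.19, adjusted p = 0.410). Il6ra, a receptor chain upstream of STAT3, had overlapping libraries (-0.996 ± 0.314, adjusted p = 0.0403), and its call was lost in 7 of 14 alternatives, without control B or C and without DKO A or B among them. By group, 7 of 20 genes of iron uptake, storage and export were called (2 higher and 5 lower, or 4 and 3 after scaling), 4 of 10 of heme handling (all lower, also after scaling), 1 of 7 antagonists and feedback genes, 1 of 6 SMADs (Smad3, lower), 2 of 8 transcription factors and 1 of 8 STAT3 inputs. None of the 3 ligands, 8 receptors and co-receptors and 2 other targets tested was called on the deposited values. After scaling, 3 of the 8 receptors and co-receptors were called, all higher, and no ligand or other target was. The transcription factors then had 1 call, which was higher, and the STAT3 inputs 0. The ligands were scarce, with Bmp6 at most 0.235 FPKM and Bmp2 at most 1.29 FPKM in any library.

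After deletion at 3 weeks Stat3 alone among the 72 was called (1.39%, against 5.25% of all genes). It fell by 0.68 on the log2 scale (limma adjusted p = 0.0327), a call lost in 6 of 12 alternatives, on leaving out any 1 of the 5 libraries among them. After scaling each library by its median ratio, 5 of the 72 were called, 1 higher and 4 lower (6.94%). Of all genes 580 were then called higher and 757 lower. For the difference of the deletion effects between the injection times 3 of the 72 were called (4.17%, against 5.36% of all genes). They were Fst (2.45 ± 0.44, limma adjusted p = 0.0179), Blvrb (-1.52 ± 0.22, adjusted p = 0.00389) and Fth1 (-1.18 ± 0.30, adjusted p = 0.0435). The call of Fst was lost without control 1 day C or DKO 3 weeks B, and that of Fth1 in 11 of 16 alternatives. After scaling, 8 of the 72 were called for this difference, 4 higher and 4 lower (11.1%), where 1208 of all genes were called higher and 1033 lower. Between 3 and 15 weeks in WT mice 24 genes rose and 9 fell (45.8% called, against 33.3% of all genes, of whose calls 72% were higher), and 17 and 14 after scaling, where 45.7% of all calls were higher. All 6 endothelial and all 5 tested macrophage markers fell too, with sums of 12.4 to 21.4 FPKM at 3 weeks against 2.44 to 5.03 at 15 weeks for the former and 4.22 to 11.1 against 0.811 to 1.46 for the latter, and their part in these differences was not tested. Socs3, a feedback inhibitor of STAT3, rose by 3.11 ± 0.33 on the log2 scale (adjusted p = 9.95e-06), and Scara5, a ferritin receptor, by 1.57 ± 0.44 (adjusted p = 0.0139, lost without WT 15 weeks B). Lcn2, an acute-phase siderophore binder, fell (-2.50 ± 0.66, adjusted p = 0.0106), as did the transferrin receptor gene Tfrc (-1.43 ± 0.49, adjusted p = 0.0379), which lost its call in 4 of 12 alternatives, without WT 3 weeks A or C or WT 15 weeks B among them. Blvrb rose by 1.26 ± 0.14 (adjusted p = 2.04e-05). Trf is left out, since it was listed at 0 in libraries whose hepatocyte genes were high.

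Over the 18 libraries the genes whose log2(FPKM + 1) was most like that of Hamp were Id3 (Pearson r = 0.90), Pxmp4 (0.84), Gc (0.83), Lipa (0.82) and Hamp2 (0.82). Those most like Id1 were Dynlt1a (0.86), Ptp4a3 (0.85), Dynlt1c (0.82), Kng1 (0.82) and Dynlt1b (0.81). Dynlt1a, Dynlt1b and Dynlt1c are closely related copies that can share reads. Within the list, Id2 and Id3 (0.86) and Id3 and Smad7 (0.86) were the other closest pairs, and r of Hamp with Tfr2 was -0.16. The libraries share groups and depth, so these values are descriptions.

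DNA methylation at the hepcidin genes differed more between newborn and adult hepatocytes than at most genes. In WGBS tiles of 200 bp, averaged over the gene and 5 kb on either side, Hamp stood at 79.6% in the newborn, 53.0% in the adult WT and 78.5% in the DKO library. Hamp2 stood at 81.2%, 68.4% and 82.1%, Id3 at 37.4%, 22.9% and 43.4%, and Tmprss6 at 71.0%, 59.2% and 74.5%. At these 4 genes the loss from newborn to adult and the excess of the DKO over the adult were each larger than at 97.3% to 99.8% of the 23056 genes with enough tiles, whose medians were 2.45 and 0.937 percentage points. At Hamp the loss was 26.6 points and larger than at 99.8% of genes, and the DKO excess was 25.5 points and larger than at 99.7%. There was 1 library per group, the adult WT mouse was not injected, and the depth behind each tile is unknown, so these differences have no replicate check.

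The other 6 genes differed less. Their window means in newborn, adult and DKO were 28.0%, 24.9% and 34.0% for Id1, 23.0%, 20.0% and 23.9% for Id2, 74.4%, 75.1% and 78.7% for Smad6, and 54.5%, 54.1% and 61.3% for Smad7. They were 78.8%, 75.8% and 79.4% for Tfr2 and 71.5%, 64.9% and 68.9% for Hfe. The DKO mean exceeded the adult mean at all 10 genes. Of the 1165 tiles in the 10 windows, 80 (6.87%) lost at least 35 percentage points from newborn to adult, against 1.63% of all 8049849 tiles. In the DKO 129 (11.1%) stood at least 35 points above the adult, against 1.98%, and 0 stood as far below. Both comparisons use the same adult library. The lost tiles numbered 17 of 42 at Hamp, 9 of 46 at Hamp2, 21 of 176 at Tmprss6 and 8 of 55 at Id3, and the tiles higher in the DKO 19, 11, 34 and 14 at these genes.

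**Figure D3:**
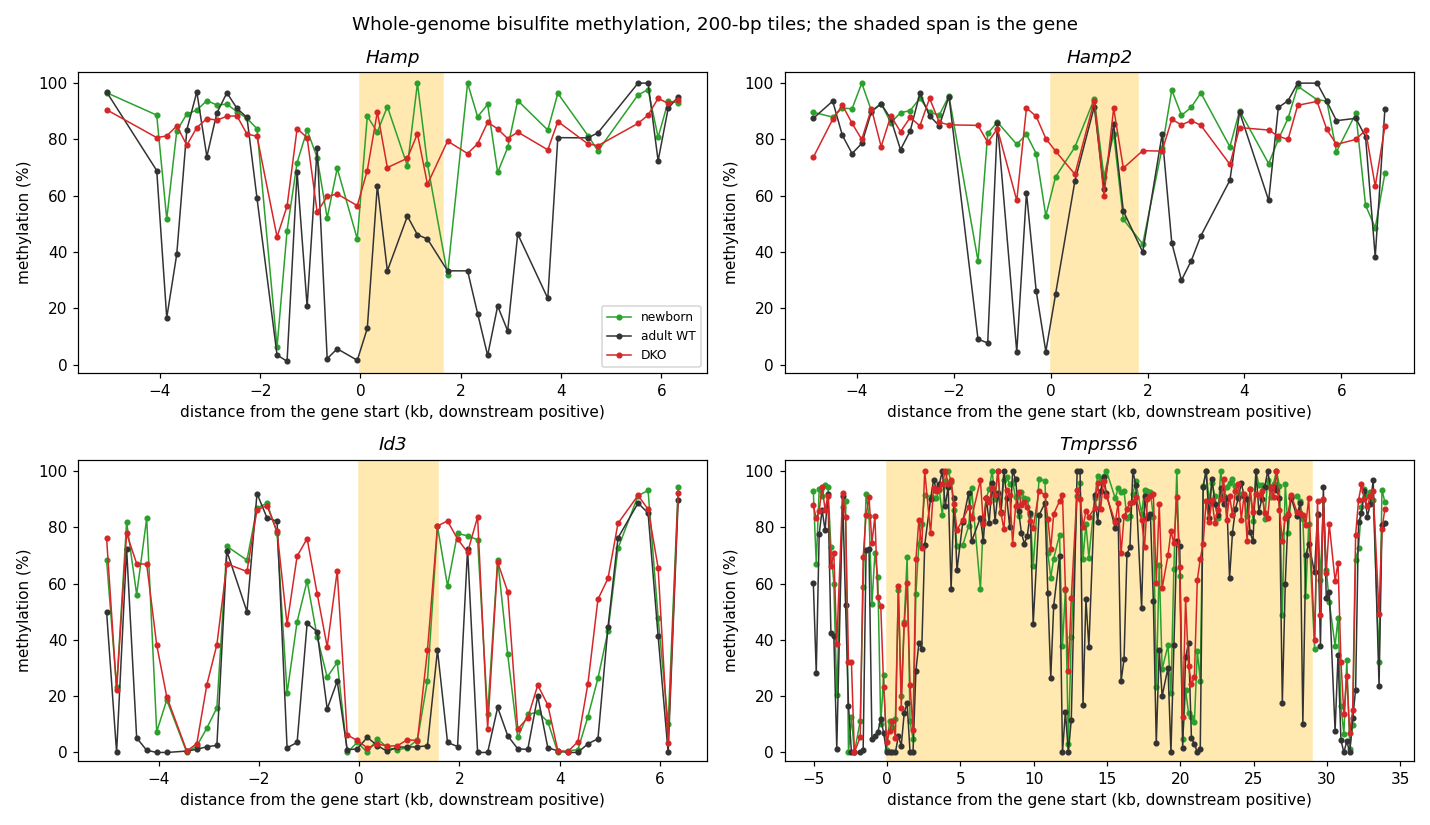
WGBS methylation (%) of 200-bp tiles against distance from the gene start (kb, downstream positive) at Hamp, Hamp2, Id3 and Tmprss6, with 1 line each for newborn, adult WT and DKO hepatocytes and the gene shaded. The adult line drops to 1.56% at the start of Hamp and to 3.28% at 2.5 kb downstream, where the newborn and DKO lines stand at 44.6% and 56.5% and at 92.4% and 86.1%.

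The start sites of the hepcidin genes were the most methylated of the 10 in the newborn and DKO libraries, whereas in the adult Hamp stood below Id1 (4.00%). The tile over the Hamp start stood at 44.6% in the newborn, 1.56% in the adult and 56.5% in the DKO library, and that over the Hamp2 start at 66.7%, 25.0% and 75.9%. The next tile upstream of Hamp2 (chr7:31709201-31709400), inside the promoter shown, stood at 52.8%, 4.65% and 80.3%. The tiles over the other 8 starts stood at 7.84% or less in all 3 libraries. The 250 bases of the promoter held 4 CpGs in Hamp and 2 in Hamp2, 1 in Hfe, 4 to 8 in the 3 promoters listed for Tfr2, 18 each in Id2 and Id3 and 27 in Smad6, so a low number was not particular to the hepcidin genes.

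The tile with the largest loss at Hamp lay in intergenic DNA downstream of the gene, 2536 bases from its start. It fell from 92.4% in the newborn to 3.28% in the adult library and stood at 86.1% in the DKO. Hamp2 held a like stretch at the matching place behind it, with 83.33% identity, where the tile chr7:31706601-31706800 stood at 97.6%, 43.3% and 87.1%. The tile at Id3 that reached 0 in the adult, 2364 bases from its start in intergenic DNA, stood at 75.6% in newborn and 83.6% in DKO. The sequences are shown, plus strand of mm9 with each CG in capitals, because few CpGs carried these differences, 2 in the Hamp tile, 4 in the Hamp2 counterpart and 2 in the Id3 tile:
Hamp, chr7:31726401-31726600: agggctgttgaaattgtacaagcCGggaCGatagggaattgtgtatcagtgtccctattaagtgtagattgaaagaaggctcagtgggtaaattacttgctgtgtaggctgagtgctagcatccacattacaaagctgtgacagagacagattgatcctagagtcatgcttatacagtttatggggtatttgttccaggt
Hamp2, chr7:31706590-31706799: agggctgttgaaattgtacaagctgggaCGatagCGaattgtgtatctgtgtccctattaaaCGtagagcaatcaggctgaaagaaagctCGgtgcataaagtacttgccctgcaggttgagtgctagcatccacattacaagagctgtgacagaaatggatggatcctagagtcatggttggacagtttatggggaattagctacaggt
Id3, chr4:135702001-135702200: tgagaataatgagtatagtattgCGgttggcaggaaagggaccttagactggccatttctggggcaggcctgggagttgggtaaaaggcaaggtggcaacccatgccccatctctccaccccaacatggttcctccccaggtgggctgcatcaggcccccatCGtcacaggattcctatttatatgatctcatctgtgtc

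Tiles in introns of Tmprss6 and Smad6 reached 0 in the adult. The tile chr15:78287001-78287200 in Tmprss6 in the newborn, adult and DKO libraries stood at 37.9%, 0 and 91.3%, and the tile chr9:63839001-63839200 in Smad6 at 91.7%, 0 and 75.0%. The tile chr15:78299801-78300000, 836 bases upstream of the Tmprss6 start, stood at 70.7%, 5.97% and 83.9%. Smad7 held an intronic tile at 81.7%, 16.1% and 73.3%, and Tfr2 an exonic tile, 1422 bases from its start, at 52.9%, 8.47% and 65.3%. Hfe had a tile 420 bases upstream of its start at 50.0%, 6.08% and 63.3%. At Id1 no tile lost more than 37.9 points, and the largest excess of the DKO was 45.2 points, 2886 bases upstream, where the values were 31.9%, 17.1% and 62.3%. Id2 had a tile 6456 bases downstream of its start at 61.8%, 17.6% and 81.5%.

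RRBS gave the same measure in single mice, though over fewer tiles. By the animal numbers of the columns, 12 of these mice also gave expression libraries, among them both WT mice of 3 weeks and all 6 controls. Averaged over the 5 tiles measured in every mouse at Hamp, methylation was 93.3% ± 0.92 (SD, n = 2) in DKO and 84.0% ± 4.36 (n = 3) in control mice injected at 1 day. At 3 weeks it was 94.4% ± 3.09 (n = 2) against 68.0% ± 3.65 (n = 3) over 4 tiles. At Id1 it was 14.7% ± 1.63 against 1.81% ± 0.57 at 1 day and 11.5% ± 0.44 against 2.10% ± 1.83 at 3 weeks. At Id3 it was 13.1% ± 1.31 against 6.15% ± 0.58 and 11.3% ± 0.45 against 4.97% ± 0.31, and at Tmprss6 59.5% ± 2.53 against 47.6% ± 2.57 and 58.6% ± 2.11 against 48.8% ± 2.58. DKO and control mice did not overlap at these 4 genes at either time. Hamp2 overlapped at both times, with 77.5% ± 3.86 against 78.5% ± 4.29 at 1 day over 5 tiles, none of which covers its start.

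Both DKO mice lay above all 3 controls at 9 of the 10 genes for injection at 1 day, against 34.8% of all genes, and at 6 for 3 weeks, against 24.0%. A comparison of 2 mice with 3 cannot give a two-sided exact permutation p under 0.2, and this was the p at each of those genes (0.32 after Benjamini-Hochberg adjustment over 40 tests). In WT mice of 3 weeks both mice lay above all 6 injected controls at 4 genes (Hamp, Id1, Id3 and Tmprss6), against 9.74% of genes, where the smallest exact p is 0.0714. They lay below them at Smad6 and Tfr2, and the share of all genes that did so was not computed. Both WT mice of 3 weeks and 1 of the controls are among the mice with Xist RNA. The WT mice of 3 weeks were also not injected, whereas all 6 controls were. Age, sex and injection thus cannot be told apart here. At Hamp the levels were 96.3% ± 5.18 (n = 2) against 78.7% ± 8.00 (n = 6). In hepatocytes without the insulin receptor, 1 gene (Tmprss6, 55.8% ± 0.25 against 53.6% ± 2.19) was above all controls, against 17.3% of genes. Another 2 (Smad6, 40.1% ± 0.83 against 42.2% ± 1.16, and Tfr2, 80.7% ± 3.34 against 88.9% ± 4.65) were below all controls, and the share of all genes below was not computed here either.

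**Figure D4:**
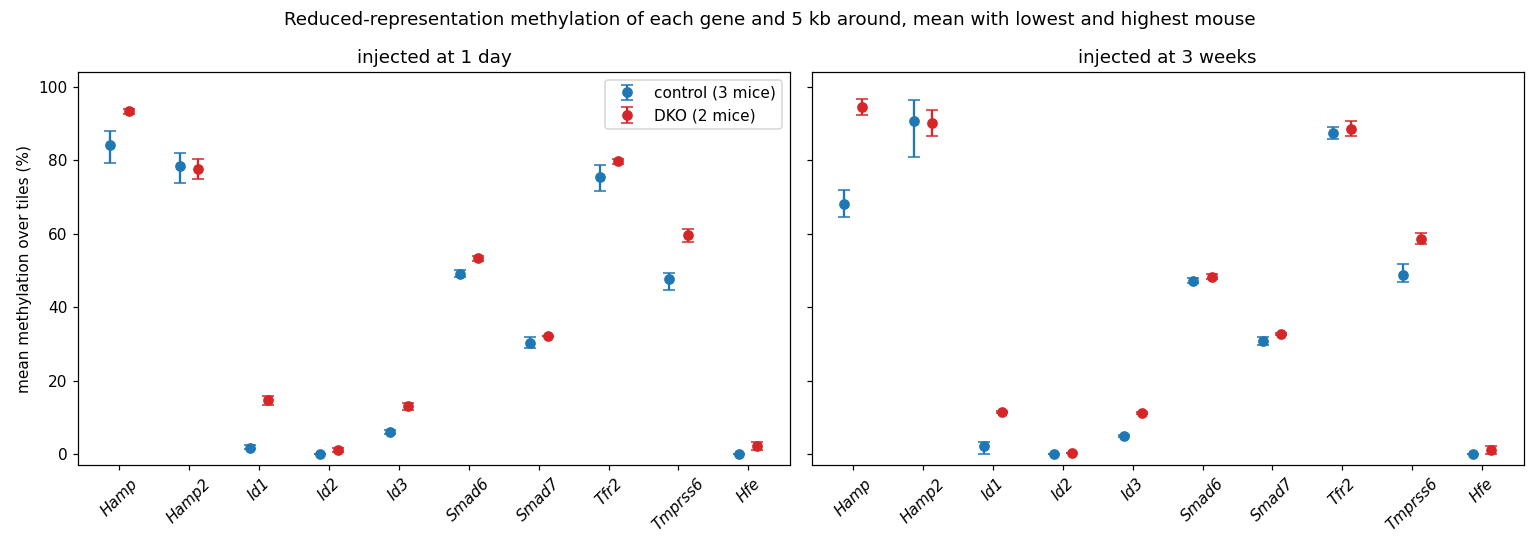
Mean RRBS methylation (%) over each gene and 5 kb around it, with bars from the lowest to the highest mouse, for control (3 mice) and DKO (2 mice) after injection at 1 day (left) or 3 weeks (right). Hamp, Id1, Id3 and Tmprss6 lie higher in the DKO mice at both times, and Hamp2 overlaps.

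Single RRBS tiles of 100 bp were counted when the means differed by at least 35 points and no mice overlapped. For DKO against control at 1 day these were 14 of 261 tiles, against 2.19% of all tiles, and at 3 weeks 8 of 248, against 1.08%. For WT of 3 weeks against injected controls they were 5 of 225, against 0.692%, and for the insulin receptor knockout 0 of 182, against 0.546%. The tile chr7:31727901-31728000 in an intron of Hamp stood at 88.1% and 100% in WT mice of 3 weeks, at 7.69%, 54.5% and 68.2% in controls injected at 1 day and at 84.0% and 84.9% in the matching DKO mice. In those injected at 3 weeks the controls stood at 26.9%, 52.0% and 59.0% and the DKO mice at 87.2% and 92.6%. It stood at 100% in fat, at 74.4% in neutrophils and at 50.0% and 64.3% in the insulin receptor knockouts.

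At Id3 the tile chr4:135698201-135698300, 1486 bases upstream of the start, stood at 0 in all 6 injected controls and both insulin receptor knockouts. It stood at 46.5% and 76.7% in DKO mice injected at 1 day, 43.8% and 70.6% in those injected at 3 weeks and 41.6% and 81.3% in WT mice of 3 weeks. A second Id3 tile, chr4:135704501-135704600 in intergenic DNA, stood at 58.5% and 64.6% at 3 weeks, at 0 to 22.01% in injected controls, at 57.7% and 67.3% in DKO mice injected at 1 day and at 67.4% and 71.8% in those injected at 3 weeks. The Id1 tile chr2:152566201-152566300, 4264 bases downstream of the start, stood at 42.9% and 61.2% at 3 weeks, 0 to 23.3% in injected controls and 43.1% to 74.5% in the 4 DKO mice. At these Id1 and Id3 tiles the DKO mice stood in the range of the WT mice of 3 weeks or near it.

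A few RRBS tiles separated the injection times. In Tfr2 the exonic tile chr5:138012601-138012700 stood at 42.9% and 54.5% in DKO mice injected at 1 day and at 0 in those injected at 3 weeks and in WT mice of 3 weeks, with controls at 0 to 17.6%. In Tmprss6 the intronic tile chr15:78286601-78286700 stood at 36.5% and 37.5% in DKO mice injected at 1 day, 6.59% and 6.67% in those injected at 3 weeks and 0 in WT mice of 3 weeks. It stood at 0 in controls injected at 1 day and 0 to 4.41% in those injected at 3 weeks. The Tmprss6 and Tfr2 tiles were thus already low at 3 weeks. The 2 cultures stood at 10.0% and 20.3% at the Tmprss6 tile, fat at 67.0% and neutrophils at 93.02%.

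Open chromatin was measured by ATAC-seq in 2 WT and 2 DKO libraries, which are labelled as liver and described by the study as hepatocytes. Of 29 peaks shared by both WT libraries in the 10 windows, 2 were in neither DKO library, against 7.34% of all such peaks, a share near the background, and 0 among the 50% of peaks with the highest score. They lay at the Hamp promoter and in an intron of Smad6, 20834 bases from its start. Both WT libraries held a peak centred 159 and 160 bases upstream of the Hamp start, over the promoter shown, with 14.9 and 3.88 tags (scaled by HOMER to a fixed library size), and neither DKO library did. All 4 libraries held a peak centred 1490 to 1677 bases upstream of Hamp, with 18.5 and 3.69 tags in WT and 2.78 and 3.93 tags in DKO. The peaks of WT library 2 and DKO library 2 did not overlap each other. Those of WT library 1 and DKO library 1 fell on an exon of Usf2. WT library 1 had the only peaks at Hamp2, 150 and 1355 bases upstream (4.26 and 4.33 tags). The WT libraries differed as much as the genotypes in the height of the peaks 1490 to 1677 bases upstream of Hamp. Of 27 shared by both DKO libraries, 2 were in neither WT library (Id2, 3665, and Id1, 5279 bases from the start), against 9.39%.

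HNF6, a homeodomain transcription factor of hepatocytes, was mapped by ChIP-seq in 2 WT and 2 DKO liver libraries, in which the number of peaks ran from 4387 to 34665. Peaks stood at the Tmprss6 start and 2081 to 2104 bases upstream of it in all 4 libraries. Of 2 shared WT peaks 0 were absent from both DKO libraries, against 5.01%, and of 8 shared DKO peaks 3 (Tfr2, 891 and 10573, and Smad7, 5372 bases from the start) were absent from both WT libraries, against 31.8%. At Hamp, WT library 2 and DKO library 2 each held a peak just beside the downstream tile shown, 2239 and 2260 bases from the start (9.8 and 10.4 tags), and the other library of each genotype did not.

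Histone marks of active regulatory DNA were mapped in 1 WT and 1 DKO hepatocyte library each, and peaks were called in each library, so a sum over peaks moves with the length called. H3K27ac tags summed over the peaks in the Hamp window were 281.8 in WT and 139.8 in DKO, a ratio of 0.496, where the median over 13261 genes was 1.68 and 2.22% of genes had a smaller ratio. The peaks covered 7120 bp at 39.6 tags per kb in WT and 5218 bp at 26.8 tags per kb in DKO. The main WT peak reached from upstream of Hamp over the gene into the downstream region shown, and its DKO counterpart stopped short of that region, at position 31727166. H3K4me1 tags were 92.3 and 43.6, a ratio of 0.472 against a median of 1.11 over 16864 genes, with 2.77% of genes smaller. They covered 4861 bp at 19.0 tags per kb in WT and 2748 bp at 15.9 tags per kb in DKO. The WT mice of the histone and WGBS libraries were not injected. In the matching expression groups Hamp stood at 382, 495 and 426.3 FPKM in the DKO and at 4.11 and 72.9 FPKM, with a listed 0, in uninjected WT mice. Controls injected at 1 day, in which these marks were not mapped, stood at 385, 239 and 163 FPKM and overlapped the DKO. Against uninjected WT mice the summed tags were thus lower and the mRNA higher in the DKO. Deletion and injection cannot be told apart in that comparison.

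For H3K27ac the ratio exceeded 1 at the other 9 genes, though it stood below the median of 1.68 at Id2, Id3, Tmprss6, Hfe and, by a small margin, Tfr2. Id1 had an H3K27ac ratio of 3.77 (106.5 to 401.9 tags), larger than at 95.9% of genes, over 5682 bp at 18.7 tags per kb in WT and 8910 bp at 45.1 tags per kb in DKO, and an H3K4me1 ratio of 1.09. Hamp2 had ratios of 2.86 and 2.42 from few tags (6.99 to 20.0 for H3K27ac, over 501 and 1273 bp). The other 7 genes lay between 1.30 (Id2) and 2.03 (Smad7) for H3K27ac, and for H3K4me1 at 0.904 (Tmprss6), 0.947 (Tfr2), 1.11 (Smad6), 1.15 (Id3), 1.42 (Smad7), 1.67 (Hfe) and 2.09 (Id2). Tags in peaks made up 24.7% of the WT and 34.2% of the DKO H3K27ac library, which moves with the median ratio, and its part in the ratios was not tested.

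**Figure D5:**
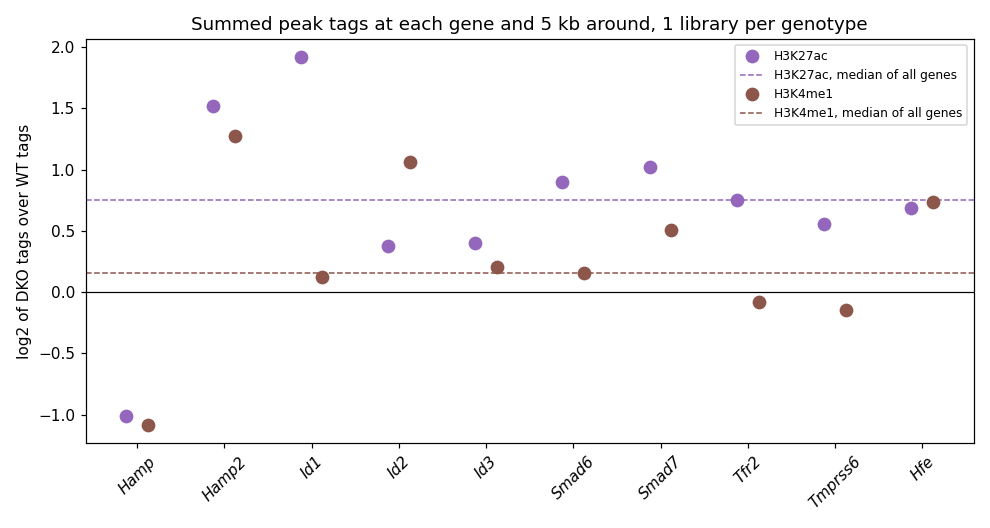
Log2 ratio of DKO to WT tags summed over the peaks of each gene and 5 kb around it, for H3K27ac and H3K4me1, with the median of all genes as broken lines. Hamp lies below 0 for both marks, at ratios of 0.496 and 0.472, and Id1 has the highest H3K27ac ratio of the 10 genes, 3.77.

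The oxidised base 5-hydroxymethylcytosine, an intermediate that TET enzymes make, was mapped in 1 library of hepatocytes of young mice. All 10 genes had a peak in their window, as did 85.6% of all genes. At Hamp the peaks lay 2340 and 5229 bases from the start (7.93 and 48.4 tags), the first over the downstream tile shown, and at Hamp2 the peak lay 2257 bases from the start (15.5 tags), over part of the counterpart shown.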

How the data were processed

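Hepatocytes were isolated by collagenase perfusion, Percoll and a CD45-negative sort, per the methods of the study. The deposited FPKM values were made by the authors from 50-base single-end reads with cutadapt, TopHat2 and Cufflinks (mm9), and library depth is not in that table. The deposited methylation values are the fraction of methylated CpG readings per tile (RRBS 100 bp, WGBS 200 bp), made by the authors with Trim Galore 0.3.3 and BSMAP 2.74 on tiles above a minimum coverage, and the coverage itself was not used here. Peaks were called by the authors in each library with HOMER after Bowtie2 alignment, and per the file headers each carries a normalised tag signal and a score. Peak libraries held 13437081 to 90249422 tags.

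Expression was tested on log2(FPKM + 1) by limma 3.58.1 (R 4.3.3) with Benjamini-Hochberg adjustment in 1 fit of 18 libraries over the 11166 genes whose mean reached 1 FPKM in some group, at an adjusted p of 0.05, and was tested on simulated data. The fit estimates 1 spread for all groups, so the single 1-week library and the 2 DKO libraries of 3 weeks were taken to vary like the others. Methylation was averaged per gene with 5 kb on either side (python 3.11.15, pandas 2.3.3, scipy 1.17.1), and tiles were counted at a difference of 35 percentage points. RRBS means used tiles with a value in every mouse compared, and exact permutation tests were two-sided. Peaks were shared at an overlap of 1 bp, and a peak across a window edge was counted by its part inside. Of 85 per-sample columns in the tables, 49 were not used, since the labels tied them to no sample or the comparison did not need them. No source says that libraries came from separate litters or cultures, so p-values measure the spread between these samples.

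The 10 genes and the gene lists were chosen with earlier results of these data known. The 10 genes are all described. Of the lists, the up to 6 called genes with the largest log2 differences are named in each comparison, besides Tet2, Tet3 and Usf2, and tiles by the largest WGBS differences (at most 3 per gene). Slc39a14, Smad3, Bmp2, Bmp6 and the sex-biased genes were named after their values were seen. Some of the sex-biased and erythroid marker genes are not reported here.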

Additional observations from a re-analysis of the deposited data

Results flagged for a closer look

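For Id2 the fitted log2 difference between DKO and control mice was 1.75 larger after injection at 1 day than at 3 weeks, in a model with an interaction term whose call passed the threshold, and 1.48 larger without control library C of 3 weeks. The 10 genes were chosen with results known, and the call was lost on leaving out any 1 of 7 libraries, that control among them, without a filter and with only the groups compared, so the value stands as a description and not as a difference shown.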

How the results depend on the processing

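Of 861 alternatives computed, 732 kept the direction and call or stayed near the value reported and 0 reversed a called result. Of 486 for the log2 differences of the 10 genes, 31 moved by more than the spread between libraries. After deletion at 3 weeks, 370 genes (1.91% of those tested) were called without a filter, 332 (4.89%) with a filter of 5 FPKM, 1337 (12.0%) after scaling each library by its median ratio and 56 (0.560%) with only the groups compared, against 586 (5.25%). For the difference between the injection times it was 128 (0.662%) without a filter, 2241 (20.1%) after scaling and 178 (1.75%) with only the groups compared, against 599 (5.36%), and 15 weeks against 3 weeks gave 2372 (35%) at 5 FPKM, against 3719 (33.3%). Of the 10 genes, 7 were called at 1 day after scaling, where 1510 of all genes were called higher and 1327 lower, and 1 at 3 weeks. Id2 lost its call for the difference between times without a filter (0) and with only the groups compared (0). With uninjected 15-week WT mice as the reference, a choice made after seeing the data, 4 of the 10 genes were called for DKO mice injected at 3 weeks. The share of all genes called under that reference is not given here, so this count has no background beside it. On leaving out 1 library, calls at 1 day ran from 7.84% (without control C) to 20.6% of genes, where DKO A gave 8.92% and DKO C 12.1%. At 3 weeks they ran from 0.475% (without DKO B) to 3.70%, where control A gave 1.84% and DKO A 2.90%. For the difference between times they ran from 0.269% (without DKO 3 weeks B) to 15.6% (without DKO 1 day B), within 1.5 times of the full count only without DKO 3 weeks A, and for 15 against 3 weeks from 23.6% to 33.9%. Called genes among the 10 ran from 1 to 5, 0 to 1, 0 to 1 and 2 to 3. Without WT 15 weeks B the Hamp2 difference from 3 weeks was -4.39. The cause of these shifts was not tested.

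WGBS tiles lost numbered 42 at 50 points and 37 within the genes alone, and those higher in the DKO 66 and 67. With the median over tiles, RRBS means were higher in every DKO mouse at 3 genes for 1 day and 3 for 3 weeks, at 2 genes for WT mice of 3 weeks and at 0 for the insulin receptor knockout. Within the genes alone it was 2 for DKO mice of 3 weeks and 1 for WT mice of 3 weeks, and with all tiles seen in a mouse of each group 0 for the insulin receptor knockout. Leaving out 1 mouse gave 8 to 9, 6 to 8, 4 to 5 and 1 to 3 genes. For the insulin receptor knockout it was 3 without knockout B, 3 without control B and 2 without control C. Among the 50% of peaks with the highest score, ATAC peaks found in WT alone numbered 0 and HNF6 peaks found in DKO alone 0. Within the genes alone, ATAC peaks of WT alone numbered 1 and of DKO alone 0. No paired analysis was possible because no mouse belongs to 2 of the groups compared, the table columns carry animal numbers in place of the replicate numbers of the labels, and the peak counts come from no test.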
